A study of Mus musculus with 4 samples.

Results

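Conventional and migratory dendritic cells were picked from 4 single-cell libraries of B16F10 tumours by marker transcripts, giving 91 of the 7745 barcodes within the quality limits. A quality barcode had at least 300 genes, at least 1000 UMIs (unique molecular identifiers, each standing for 1 captured transcript) and at most 20% mitochondrial UMIs. A dendritic cell had at least 10 UMIs of the MHC class II genes H2-Aa, H2-Ab1, H2-Eb1 and Cd74, and at least 2 UMIs summed over Flt3, Xcr1, Clec9a, Cd209a, Zbtb46, Fscn1 and Ccl22. It had at most 2 UMIs of the macrophage genes C1qa, C1qb and C1qc, fewer than 10 of the pigment genes Pmel, Mlana, Tyrp1 and Dct, and no UMI of Siglech, the Cd3 chains or Cd79a. Each cell was then assigned to the largest of 3 sums: Xcr1 with Clec9a, Cd209a alone, or Fscn1 with Ccr7. The genes of the gate and of the split therefore describe how cells were chosen, and their levels are no findings.

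B16F10 is a mouse melanoma line, so dendritic cells in these tumours come from the host mouse. The D+F+P tumours received doxorubicin (an anthracycline), fasudil (an inhibitor of ROCK kinases) and an antibody against the checkpoint receptor PD-1, the D+F tumours doxorubicin and fasudil, the aPD-1 tumours the antibody, and the control tumours carry the label control only. Each group is 1 library of unsorted cells after removal of red cells, debris and dead cells. The labels give neither doses, days, mouse strain nor the number of mice per library. All differences here are between libraries, without a replicate check or a test, and intervals are exact 95% intervals that cover counting error only.

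Dendritic cells take up antigen and present peptides to T cells. Conventional type 1 cells (cDC1) depend on Batf3 and Irf8, carry the chemokine receptor Xcr1 and Clec9a, a sensor of exposed actin on dead cells, and are known for cross-presenting tumour antigen to CD8 T cells. Conventional type 2 cells (cDC2) present mainly to CD4 T cells and share many genes with monocytes. On maturation, either type induces Ccr7, which guides it to lymph nodes, the actin-bundling protein Fscn1, co-stimulatory ligands and T cell-attracting chemokines, while class II transcription is known to be shut down.

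The libraries held 2739, 2809, 2525 and 2529 barcodes with 22691663, 31937128, 27216211 and 34444856 UMIs in D+F+P, D+F, aPD-1 and control. Of these, 1443, 2211, 1957 and 2134 were within the quality limits, with median UMIs of 10193, 14427, 12014 and 16835. The gated dendritic cells were shallower, with medians of 8214 UMIs in D+F+P, 5240 in D+F, 8263 in aPD-1 and 2840 in control. Between 2 and 17 barcode sequences were shared by any pair of libraries. Of the 91 dendritic cells, 2 had a barcode also found in another library, and 0 shared it with another dendritic cell. No doublet caller was used.

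Not all 91 cells fitted the label. The Fscn1 and Ccr7 split held 37 cells, of which 11 had neither a Ccr7 nor a Ccl22 UMI (1 in D+F+P, 2 in D+F, 8 in aPD-1 and 0 in control). They passed on Fscn1, in some together with Zbtb46, and on low class II counts. Ptprc, which encodes the pan-leukocyte protein CD45, had 0 UMIs in all 11. In 6 of them a list of 6 fibroblast genes (Col1a1 and others) summed to 59 to 696 UMIs, in 2 a list of 5 endothelial genes summed to 45 to 82 UMIs, and the remaining 3 had 5 to 12 UMIs of a melanoma list. Their leading genes against the other gated cells were Spp1, Sparc, Bgn and Col1a1, all matrix or matrix-associated proteins, and their median depth of 16112 UMIs was far above that of the other subsets. The fibroblast list had 0 UMIs in all 26 remaining cells of the split and at most 1 UMI in any Xcr1 or Clec9a cell. These 11 cells, called Fscn1-only from here, were set aside after their values were seen, leaving 80 cells, and shares are given with and without them.

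**Figure D1:**
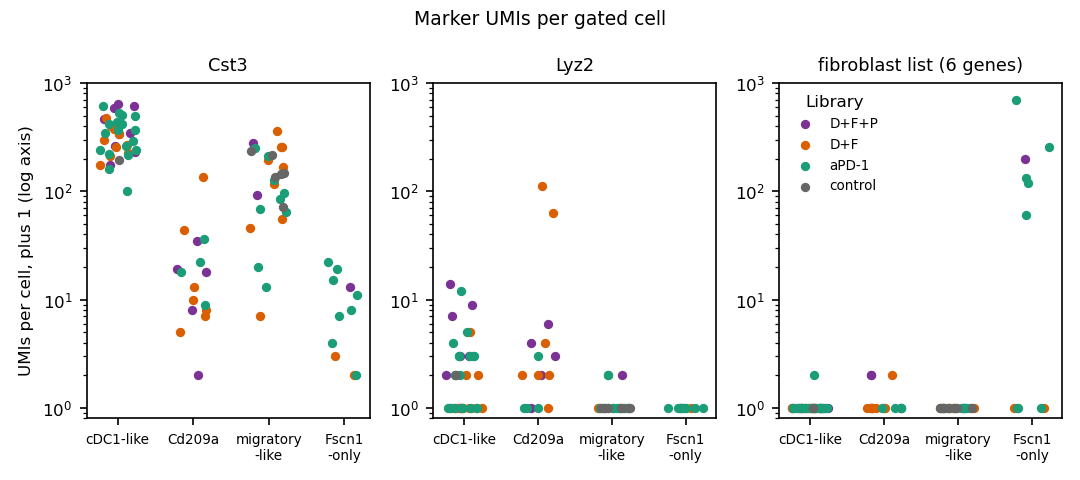
UMIs per cell (plus 1, log axis) of Cst3, of Lyz2 and of a 6-gene fibroblast list in every gated cell, by subset, 1 point per cell, coloured by library. Cst3 is high in cDC1-like cells (median 336 UMIs) and migratory-like cells (median 130) and low in Cd209a cells (median 14.5), and fibroblast list UMIs of 59 or more are seen in Fscn1-only cells alone.

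Of the 80 cells, the 38 with Xcr1 or Clec9a carried the wider cDC1 programme and are called cDC1-like. Of their 10 leading genes (highest level relative to either other subset), 5 were on the cDC1 marker list: Wdfy4, a protein needed for cross-presentation, at 499 CPM (UMIs per 1000000 UMIs of those cells) and 12.8-fold over the larger of the other subsets, Ppt1, a lysosomal thioesterase, 9.14-fold, the small GTPase Rab7b 8.18-fold, the surface glycoprotein Cd24a 8.11-fold, and Itgae, the CD103 integrin chain, 6.94-fold.

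The 16 Cd209a cells are not called cDC2 here. Among their 10 leading genes, the monocyte list held Lyz2 (12.5-fold, UMIs in 11 of 16 cells) and Plac8 (3.54-fold), and the cDC2 list held Ms4a6c alone (5.84-fold). Lyz2, the lysozyme of myeloid cells, rested on 2 cells of the D+F library with 50 or more Lyz2 UMIs each: D+F had 178 Lyz2 UMIs with them and 6 without. Leaving these 2 cells out, an alternative added after the values were seen, each list had 1 gene among the 10 leading ones, Plac8 (3.66-fold) and Ms4a6c (5.78-fold). Summed over 19 cDC2 genes other than Cd209a, the level was 2827 CPM in Cd209a cells, against 439 in cDC1-like cells, 1873 in macrophages and 1849 in C1q-low monocytes (means over libraries). The monocyte list summed to 6249 CPM in Cd209a cells, ranging between 3697 and 10552 by library (2843 instead of 10552 in D+F without those 2 cells), against 25702 CPM in monocytes and 991 CPM in cDC1-like cells. Sirpa and Irf4, textbook cDC2 genes, were near 0: Sirpa had UMIs in 1 of the 16 cells.

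The other 26 cells, with Ccr7 or Ccl22, are called migratory-like. Their 10 leading genes included Il12b, the p40 chain of IL-12 and IL-23 (1815 CPM, 46.5-fold), the chemokine Ccl5 (12743 CPM, 40.8-fold), Tmem123 (26.9-fold), the calcium channel subunit Cacnb3 (94 UMIs against 0 in the other subsets, at least 19.3-fold) and the serpin Serpinb6b (10.3-fold), all on the migratory list. Il12b had UMIs in 15 of 26 migratory-like cells, against 2 of 38 cDC1-like cells, 0 of 16 Cd209a cells and 1 of 135 macrophages. The split was not clean at its edges: 4 of the 26 had a Clec9a UMI, 1 had Cd209a, 4 cDC1-like cells had Ccr7, and 5 of 16 Cd209a cells had Ccr7. The name is loose for some of the 26. In 1 aPD-1 cell with 1 Ccr7 and 1 Ccl22 UMI, the cDC2 list (38 UMIs) exceeded the migratory list (18 UMIs). It did so too in the cell with Cd209a (9 UMIs), also of aPD-1, at 34 against 24 UMIs. In D+F, 1 cell had 2 Ccr7 UMIs and 10 UMIs of the migratory list. These list sums include the genes of the gate. Had Fscn1-only cells been kept, Sparc (81.2-fold) and Bgn would have led the list.

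**Figure D2:**
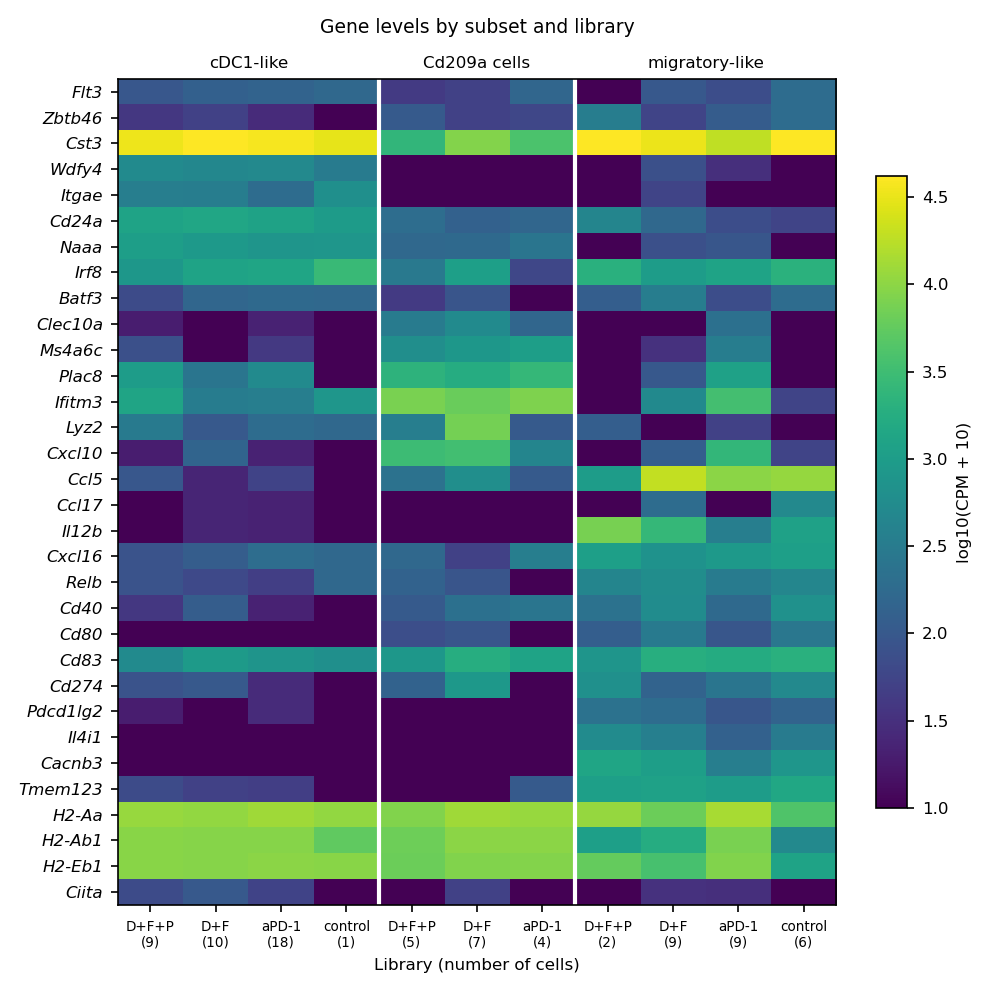
Level of 32 genes in each subset and library, as log10(CPM + 10), with the number of cells under each column, cDC1-like cells on the left, Cd209a cells in the middle and migratory-like cells on the right. Wdfy4, Itgae and Naaa are high in all cDC1-like columns, Ccl5, Il12b, Cacnb3 and Il4i1 in the migratory-like columns, and H2-Ab1 varies most among migratory-like columns.

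Of all quality barcodes, dendritic cells had the lowest share in the control library. They were 17 of 1443 barcodes in D+F+P (1.18%, 0.688 to 1.88), 28 of 2211 in D+F (1.27%, 0.843 to 1.83), 39 of 1957 in aPD-1 (1.99%, 1.42 to 2.71) and 7 of 2134 in control (0.328%, 0.132 to 0.675). Without Fscn1-only cells the counts were 16 (1.11%), 26 (1.18%), 31 (1.58%) and 7 (0.328%) in the same libraries. With Fscn1-only cells the interval of each treated library lies above that of control, and without them that of D+F+P (0.635 to 1.79) overlaps it. The order depended on the denominator. Of barcodes with fewer than 10 pigment UMIs, of which control had 209, dendritic cells without Fscn1-only cells were 1.75% in D+F+P (1.01 to 2.83), 5.12% in D+F (3.37 to 7.41), 3.64% in aPD-1 (2.49 to 5.13) and 3.35% in control (1.36 to 6.78), so that D+F+P was lowest.

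Cells with Xcr1, Clec9a or Cd209a were nearly absent among the gated cells of control. Counted together, these were 14 cells in D+F+P (0.970%, 0.531 to 1.62), 17 in D+F (0.769%, 0.449 to 1.23), 22 in aPD-1 (1.12%, 0.706 to 1.70) and 1 in control (0.0469%, 0.00119 to 0.261). By subset, cDC1-like cells numbered 9 in D+F+P (0.624%), 10 in D+F (0.452%), 18 in aPD-1 (0.920%) and 1 in control. Cd209a cells numbered 5 in D+F+P (0.347%), 7 in D+F (0.317%), 4 in aPD-1 (0.204%) and 0 of 2134 in control (exact upper bound 0.173%), where the limit of 3 cells used here for a count of 0 allows a share of up to 0.141%. Without thinning, the control interval of the joint count does not overlap any treated interval. Of barcodes with fewer than 10 pigment UMIs the joint count was 1.54% in D+F+P (0.842 to 2.56), 3.35% in D+F (1.96 to 5.30), 2.58% in aPD-1 (1.63 to 3.88) and 0.478% in control (0.0121 to 2.64), and there the control interval overlaps all 3.

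Migratory-like cells did not follow that order. They numbered 2 in D+F+P (0.139%), 9 in D+F (0.407%), 9 in aPD-1 (0.460%) and 6 in control (0.281%, 0.103 to 0.611), and the 4 intervals overlap. They made up 12.5% of the cells in D+F+P, 34.6% in D+F, 29.0% in aPD-1 and 85.7% in control (42.1 to 99.6). The gate for class II left out further cells of this kind: with under 10 class II UMIs but at least 10 UMIs of Fscn1 and Ccr7, Ccr7 among them, there were 0 in D+F+P, 1 in D+F, 2 in aPD-1 and 3 in control, which would raise the counts to 2, 10, 11 and 9. At the other edge of the gate, 11 members had exactly 2 UMIs of the dendritic genes and 13 barcodes with 1 such UMI were left out.

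**Figure D3:**
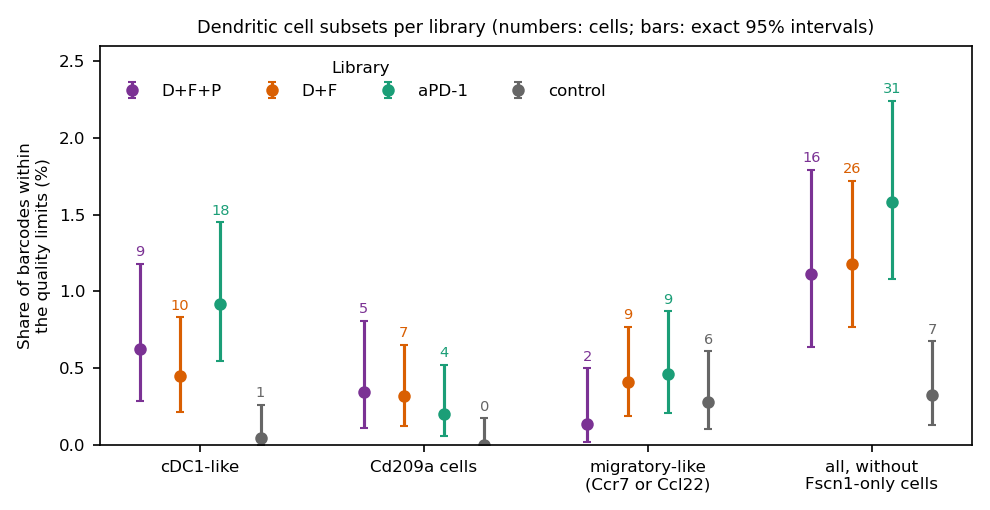
Share of quality barcodes (%) held by each subset in D+F+P, D+F, aPD-1 and control, points with exact 95% intervals and the number of cells above each. Control has 1 cDC1-like and 0 Cd209a cells, while its 6 migratory-like cells lie within the range of the treated libraries.

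Macrophages and monocytes were also few in control, and plasmacytoid cells were not. C1q-positive macrophages were 1.46% of barcodes in D+F+P, 1.49% in D+F, 3.58% in aPD-1 and 0.515% in control, and C1q-low monocytes were 1.11%, 1.09%, 2.66% and 0.609% in the same order. Cells gated as plasmacytoid were 0.416% in D+F+P, 0.362% in D+F, 0.715% in aPD-1 and 0.515% in control. Of all gated myeloid cells, plasmacytoid ones included and without Fscn1-only cells, dendritic cells were 27.1% in D+F+P (16.4 to 40.3), 28.6% in D+F (19.6 to 39.0), 18.6% in aPD-1 (13 to 25.3) and 16.7% in control (6.97 to 31.4), and these intervals overlap. The part that tumour cell content or dissociation has in the shares was not tested. Depth was varied by thinning every barcode before gating, as described below. Thinned, the dendritic cell shares of D+F+P and D+F came near the unthinned control share, and that of aPD-1 stayed above it. D+F then had no Cd209a cell and few cDC1-like cells, so its difference from control in these subsets depended on depth.

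The subsets differed in the genes that set their functions. A gene counts as higher or lower here when its CPM differs at least 2-fold with at least 50 UMIs in the pair, a rule of size and no test. A gene can pass the 50 UMIs through the subset where it is high, so the counts over list members describe those members and support nothing. Between cDC1-like and Cd209a cells of the D+F+P, D+F and aPD-1 libraries, 14.9% of 1052 genes were higher and 9.51% lower in cDC1-like cells. Of 10 measured cDC1 list genes outside the gate, 8 were higher in cDC1-like cells, with a median log2 ratio of 2.52 against 0.15 over all genes. Summed over all 20 genes of a proliferation list, with no limit on UMIs, cDC1-like cells had 2672 CPM in D+F+P, 1779 in D+F and 3946 in aPD-1, and Cd209a cells 506, 652 and 484 CPM in the same libraries (42 UMIs in all). Tubb5, a tubulin (2.40), and Hmgb2, a chromatin protein of dividing cells (2.33), were among the genes that were higher. Cells with at least 20 UMIs of that list per 10000 numbered 15 of 38 cDC1-like cells, against 1 of 16 Cd209a and 6 of 26 migratory-like cells. By library these were 3 of 9 cDC1-like cells in D+F+P, 4 of 10 in D+F, 7 of 18 in aPD-1 and 1 of 1 in control. Their levels were unlike: the highest cDC1-like cell had 61.3 per 10000 in D+F+P, 31.0 in D+F, 91.1 in aPD-1 and 25.3 in control.

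An interferon gamma response list was higher in Cd209a than in cDC1-like cells in 2 of 3 libraries. A type I interferon response list was higher in all 3, and chemokines other than Cxcl10 came mostly from 2 cells. The type I list of 25 genes summed to 4708 CPM in Cd209a and 2540 CPM in cDC1-like cells of D+F+P. It came to 7089 and 2183 CPM in D+F, and 6532 and 2726 CPM in aPD-1. An interferon gamma response list of 23 genes summed to 6635 CPM in Cd209a and 2230 CPM in cDC1-like cells of D+F+P, 9819 and 2897 CPM in D+F, and 2467 and 2549 CPM in aPD-1. Of 8 measured genes of that list, 5 were lower in cDC1-like than in Cd209a cells (median log2 ratio -1.40) and 2 were higher, Irf8 (1.27) and Serpina3g (1.02). Among the lower ones were Gbp2, a guanylate-binding protein (-2.61), and the transcription factor Irf1 (-1.87), both lower in each of the 3 libraries. Without the 2 D+F cells of high Lyz2, 5 of 8 were again lower (median -1.55), with Gbp2 at -2.53 and Irf1 at -1.69. Of 6 measured chemokine genes, 5 were lower in cDC1-like cells (median -2.93), including Cxcl10, a ligand of Cxcr3 on T cells (-6.01), and the monocyte attractant Ccl2 (-4.43). Without those 2 cells only 2 of 4 measured chemokine genes were lower (median -0.95). Cxcl10 stayed at -5.82, and Ccl2 had 0 UMIs left in the other 14 Cd209a cells, against 10 UMIs in cDC1-like cells. The level varied with library: Cxcl10 in Cd209a cells was 3001 CPM in D+F+P, 3382 in D+F (2645 without the 2 cells) and 435 in aPD-1. Ifitm3, an interferon-induced membrane protein, was even, at 7709 CPM in D+F+P, 6315 in D+F and 8467 in aPD-1. Lyz2 was not, at 348 CPM in D+F+P, 7252 in D+F and 96.8 in aPD-1, and came to 397 CPM in D+F without the 2 cells.

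Against migratory-like cells of the D+F and aPD-1 libraries, 13.7% of 825 genes were higher and 12.5% lower in cDC1-like cells. Of 9 measured migratory list genes outside the gate, 8 were lower in cDC1-like cells (median log2 ratio -4.85, against 0.20 over all genes). NF-kB pathway genes went the same way, 5 of 6 lower (median -2.16): the subunit Relb by -3.38, the adaptor Traf1 by -3.13, the inhibitors Nfkbia by -2.19 and Nfkbib by -2.14, and the subunit Rel by -1.29. Relb and Traf1 are also on the migratory list, so these 2 repeat its result. Of 10 cDC1 genes, 7 were higher in cDC1-like cells (median 3.42), while Id2, a transcriptional regulator of the cDC1 lineage, was lower (-1.15) and Irf8 differed little (0.23).

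Class I presentation genes went both ways. Of 19 measured, 4 were lower in cDC1-like than in migratory-like cells (21.1%, against 12.5% of all 825 genes). Another 2 were higher (10.5%, against 13.7%). The counts are small and are not read as a result for the list. The lower ones included B2m, the shared light chain (-1.18), and the heavy chain H2-K1 (-1.09). The higher ones were Calr, a chaperone of the peptide-loading complex (2.07), and Wdfy4 (3.51). The peptide transporters Tap1 and Tap2 differed by 0.67 and 0.76. Between migratory-like and Cd209a cells, 15.2% of 388 genes were higher and 10.3% lower in migratory-like cells, and 7 of 7 measured migratory list genes were higher (median 4.42, against -0.02 over all genes).

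Among cDC1 genes outside the gate, Wdfy4 and Naaa had close levels in the 3 treated libraries. Wdfy4 was 536 CPM in D+F+P, 472 in D+F, 494 in aPD-1 and 316 in control. Itgae was 339, 337, 183 and 633 CPM in the same order. Irf8 was 809 CPM in D+F+P, 1253 in D+F, 1348 in aPD-1 and 2846 in control. Naaa, a lipid amidase marking cDC1, was 1063, 862, 768 and 791 CPM. The single control cell gives a level for that cell only.

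Of the class II presentation genes outside the gate, H2-DMa, H2-DMb1 and Ctss differed by less than 2-fold between the treated libraries in cDC1-like cells. H2-DMa, a chain of the peptide exchange factor H2-M, was 1317 CPM in D+F+P, 1172 in D+F, 939 in aPD-1 and 316 in the single control cell. H2-DMb1, its partner chain, was 1167, 835, 890 and 0 CPM, and Ctss, a protease that cuts the invariant chain, 376, 364, 268 and 158 CPM in the same order. H2-Aa, a gate gene, was 11590 CPM in D+F+P, 10820 in D+F, 12656 in aPD-1 and 10911 in control. Ciita, the master activator of class II, was sparse at 56.4, 94.3, 42.7 and 0 CPM in D+F+P, D+F, aPD-1 and control. Tlr3, a sensor of double-stranded RNA, was found in 4 of 38 cells, and Havcr2, which encodes TIM-3, in 19 of 38.

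Migratory-like cells carried ligands for T cells in every library, at uneven levels. D+F+P had only 2 such cells with 9114 UMIs in all, so its levels describe those cells only. Their Ccl5, for instance, was 6 and 3 UMIs. Ccl5 was 987 CPM in D+F+P, 19180 in D+F, 9785 in aPD-1 and 11141 in control, with UMIs in 24 of 26 cells. Il12b was 7461 CPM in D+F+P, 2596 in D+F, 348 in aPD-1 and 1159 in control, but 86.2% of the D+F UMIs came from 1 cell. Ccl17, a Ccr4 ligand like Ccl22, was 0 in D+F+P, 179 CPM in D+F, 0 in aPD-1 and 490 CPM in control. Cxcl16, the ligand of Cxcr6, was steady at 1097, 694, 901 and 1114 CPM in D+F+P, D+F, aPD-1 and control.

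Co-stimulatory and inhibitory molecules were both detected in migratory-like cells, and whether the same cells carried them was not tested. The D+F+P levels again come from 2 cells. Cd40 was 219 CPM in D+F+P, 560 in D+F, 164 in aPD-1 and 668 in control, and Cd80, a ligand of Cd28, was 110, 291, 81.9 and 267 CPM. Cd274, which encodes PD-L1, was 658, 134, 246 and 490 CPM. Cd274 UMIs were found in 53.8% of migratory-like cells at a median of 4479 UMIs per cell, close to the 54.1% of macrophages (median 4244) and 58.1% of monocytes (median 3896). Il4i1, an amino acid oxidase that limits T cells, was 549, 358, 123 and 312 CPM, with 0 UMIs in cDC1-like and Cd209a cells. Ido1 had 0 UMIs in all dendritic cells.

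Migratory-like cells with many Fscn1 UMIs tended to have fewer class II UMIs. Fscn1 and class II are both in the gate and the division was made after the values were seen, so this is a description of the chosen cells. The 18 cells with 5 or more Fscn1 UMIs (1 in D+F+P, 7 in D+F, 4 in aPD-1 and 6 in control) had a median of 138 class II UMIs per 10000, between 35.9 and 601. The 8 cells under 5 Fscn1 UMIs (1, 2, 5 and 0 in the same libraries) had a median of 706, between 47.3 and 1215, beside a median of 645 in cDC1-like cells (441 to 978), and the 2 ranges overlap. By library, the Fscn1-high cells had medians of 181 in D+F+P, 139 in D+F, 148 in aPD-1 and 99.1 in control. Ccr7 was at similar levels, at 4025 CPM in Fscn1-high and 3405 CPM in Fscn1-low cells, and depth differed, with medians of 3322 and 6513 UMIs per cell.

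**Figure D4:**
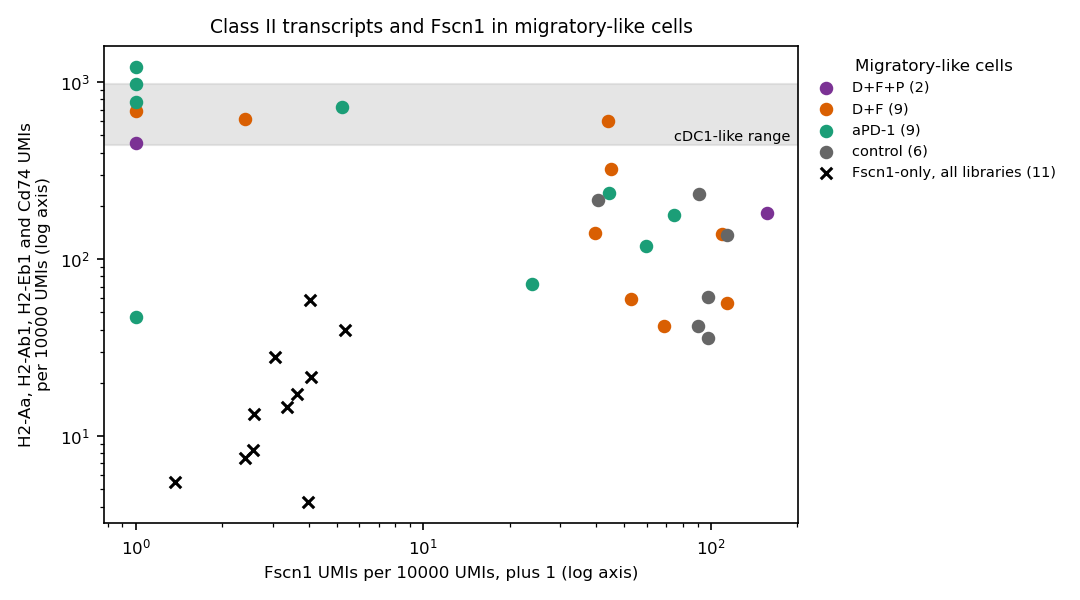
Class II UMIs against Fscn1 UMIs (plus 1), both per 10000 UMIs of the cell on log axes, 1 point per migratory-like cell coloured by library, with crosses for the 11 Fscn1-only cells and a grey band for the range of cDC1-like cells (441 to 978). The 6 control cells lie among the 18 Fscn1-high cells, and 5 of 9 aPD-1 cells lie at the left with few or no Fscn1 UMIs.

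The class II genes did not differ equally between these cells. H2-Ab1 was 528 CPM in Fscn1-high and 7609 CPM in Fscn1-low cells (log2 ratio -3.85), H2-Eb1 1764 and 9465 CPM (-2.42), Cd74 9511 and 38983 CPM (-2.04), and H2-Aa 4507 and 14725 CPM (-1.71). Outside the gate, H2-DMb1 was 15.1 and 596 CPM, with 1 UMI in all 18 Fscn1-high cells. Ccl5, at 18254 CPM in Fscn1-high and 6520 CPM in Fscn1-low cells, and Cd63, a tetraspanin, at 1251 and 187 CPM, were higher in Fscn1-high cells of D+F+P, D+F and aPD-1 alike. B2m of class I was 5110 and 2877 CPM (0.83), but 3889 and 4623 CPM in D+F+P, which had 1 cell of each kind. Cst3, a cystatin abundant in the lineage, turned by library, at 27998 CPM in Fscn1-high and 44023 CPM in Fscn1-low cells of D+F, and 36457 and 14339 CPM in aPD-1.

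The interferon-induced genes Ifitm3 and Cxcl10 were high in the Fscn1-low cells of 1 library, and Ifi27l2a was not limited to them. Of 170 Ifitm3 UMIs in Fscn1-low cells 169 were in the 5 aPD-1 cells, and of 123 Cxcl10 UMIs 119. In D+F, Ifitm3 was 686 CPM in Fscn1-high and 79.3 CPM in Fscn1-low cells. Ifi27l2a was 1964 CPM in Fscn1-high cells of D+F (63 UMIs, in 6 of 7 cells) and 2541 CPM in Fscn1-low cells of aPD-1. A type I interferon response list summed to 5103 CPM in all migratory-like cells of D+F and 3951 CPM in those of aPD-1. The same 5 aPD-1 cells held all 57 Plac8 UMIs of Fscn1-low cells and 72 of 76 UMIs of Fcer1g, the Fc receptor gamma chain, both also among the leading genes of Cd209a cells.

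H2-Ab1 (chromosome 17, 34257689 to 34269419 on GRCm38), H2-Aa (34282744 to 34287823) and H2-Eb1 (34305867 to 34316674) are neighbours in the MHC region. Their promoters are known to be read through a Y box, an inverted CCAAT bound by NF-Y, together with RFX and Ciita. The 250 bases before the start of H2-Aa and H2-Eb1 are shown because the levels of both genes differed between Fscn1-high and Fscn1-low cells, by different amounts (RefSeq, GRCm38.p6). Capitals mark ATTGG or CCAAT, searched on the printed strand in both orientations. The H2-Aa window (chr17:34287824-34288073, minus strand) holds 1 match, starting 48 bases before the start, and the H2-Eb1 window (chr17:34305617-34305866, plus strand) holds 2, starting 59 and 35 bases before it.
H2-Aa: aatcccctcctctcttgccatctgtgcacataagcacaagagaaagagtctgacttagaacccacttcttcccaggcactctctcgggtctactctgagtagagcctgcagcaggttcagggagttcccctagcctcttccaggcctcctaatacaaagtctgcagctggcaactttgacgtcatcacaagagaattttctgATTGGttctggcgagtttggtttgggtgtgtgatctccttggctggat
H2-Eb1: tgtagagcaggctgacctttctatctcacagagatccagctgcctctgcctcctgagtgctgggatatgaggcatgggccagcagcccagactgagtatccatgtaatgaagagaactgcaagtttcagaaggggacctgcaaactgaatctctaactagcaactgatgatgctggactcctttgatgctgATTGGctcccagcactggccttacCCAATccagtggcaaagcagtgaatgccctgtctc
Of 32851 promoters of the same length, 11120 (33.8%) hold ATTGG or CCAAT, so a match describes the window and is no evidence of a site.

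None of the 5 library pairs first set for comparing genes had the 20 dendritic cells in both libraries that were required. Genes were instead compared within a subset where both libraries held at least 6 cells, a limit set after the cell numbers were seen, which gave 5 comparisons. The 3 among cDC1-like cells share libraries, as do the 2 among migratory-like cells.

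In cDC1-like cells of D+F+P against D+F, 2.62% of 458 genes were at least 2-fold higher and 1.31% lower. Rac1, a small GTPase of actin remodelling, was 470 CPM in D+F+P and 80.8 CPM in D+F (log2 ratio 2.54, 1.32 to 4.05). Plac8 was 1007 and 243 CPM (2.05, 1.32 to 2.86) and Ifitm3 1289 and 323 CPM (1.99, 1.36 to 2.69). The 12-gene monocyte list, which holds Plac8, summed to 1533 CPM in D+F+P, 566 in D+F and 872 in aPD-1 in these cells, and its part in the result was not tested. The immediate early gene Atf3 (-1.02, -1.59 to -0.47), the phosphatase Dusp1 (-1.03, -1.64 to -0.44) and the kinase Pim1 (-1.09, -1.75 to -0.44) were lower in D+F+P.

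Against aPD-1, 2.22% of 677 genes were higher and 1.92% lower in D+F+P. Rac1 was again higher, at 470 CPM in D+F+P and 91.5 CPM in aPD-1 (2.36, 1.51 to 3.30), as was Ifitm3 (1.89, 1.43 to 2.36), which came to 1.35 without the cell with most UMIs, and the calcium-binding protein S100a6 (1.51, 0.81 to 2.25). Ube2c, which acts in mitotic exit, was 65.9 CPM in D+F+P and 348 CPM in aPD-1 (-2.40, -3.78 to -1.26), and the nuclear RNA Malat1 1994 and 4709 CPM (-1.24, -1.47 to -1.02). Of 5 measured proliferation genes, 2 were at least 2-fold lower in D+F+P (median -0.89, against 0.04 over all genes).

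The Rac1 difference was not particular to dendritic cells. In D+F+P and D+F it was 524 and 114 CPM in macrophages (log2 ratio 2.20), 619 and 136 CPM in monocytes (2.18), 409 and 79.0 CPM in T and NK cells (2.37), and 295 and 109 CPM in melanoma cells (1.44). Ifitm3 differed less in those cells, by 0.26, 0.13, 0.19 and 0.23. Plac8 differed by 2.14 in macrophages and 0.67 in monocytes. Dusp1 was lower in D+F+P in other cells too, by -0.77 in macrophages, -2.03 in monocytes, -0.64 in T and NK and -0.40 in melanoma cells. In the same order Pim1 differed by 0.25, -0.82, -0.22 and 0.93, and Atf3 by -0.10, 0.48, -0.26 and -0.03.

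In aPD-1 against D+F, 3.87% of 594 genes were higher and 1.01% lower in cDC1-like cells. Ube2c had 57 UMIs in aPD-1 and 0 in D+F, at least 8.60-fold higher, and Hmgb2 was 842 and 269 CPM (1.64, 0.96 to 2.40). Ube2c UMIs came from 7 of 18 aPD-1 cells. Malat1 was 4709 CPM in aPD-1 and 1496 in D+F (1.65, 1.37 to 1.95). In class I, 3 of 16 measured genes passed 2-fold upward in aPD-1, the non-classical heavy chains H2-Q6 (1.08), H2-Q7 (1.21) and H2-T22 (1.66), and H2-K1 was 1500 and 782 CPM (0.94, 0.52 to 1.38). The part that reads matching more than 1 H2 gene have in these levels was not tested. Pim1 (-1.63), Nfkbia (-0.94) and the translation factor Eif3f (-0.92) were lower in aPD-1. Eif3f was lower in other cells too, by -0.36 in macrophages, -0.73 in monocytes, -0.43 in plasmacytoid, -0.44 in T and NK and -0.50 in melanoma cells. In the same order Nfkbia differed by 0.12, -0.43, 0.15, -0.37 and -0.36, and Pim1 by 0.31, -0.82, -0.22, -0.63 and -0.25.

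In migratory-like cells, aPD-1 against control gave the widest spread of the 5 comparisons, with 15.8% of 228 genes higher and 9.21% lower. Over all genes the median log2 ratio was 0.11, and changes are read relative to it. Ifitm3 was 3480 CPM in aPD-1 and 44.6 CPM in control (6.29, 3.79 to 11.60), Cxcl10 2456 and 44.6 CPM (5.78, with 50% of the aPD-1 UMIs in 1 cell) and Ifi27l2a, an interferon-induced gene, 2108 and 44.6 CPM (5.56). The monocyte list moved with them, at 110 CPM in D+F+P, 157 in D+F, 1781 in aPD-1 and 0 in control, and its part in the result was not tested. Of the gate genes, H2-Ab1 was 7860 and 490 CPM in aPD-1 and control (4.0, 3.15 to 5.02) and H2-Eb1 8741 and 1248 CPM (2.81). In other cells H2-Ab1 differed by 0.55 in macrophages, -0.06 in monocytes, -0.97 in plasmacytoid, 0.64 in T and NK and 1.72 in melanoma cells. Lower in migratory-like cells of aPD-1 were the gate genes Ccl22, at 266 CPM against 2317 CPM in control (-3.12), and Fscn1, at 1044 against 8021 CPM (-2.94). So were the proteasome activator Psme1 (-1.49), the small zinc-binding protein Crip1 (-1.28) and Cst3 (-1.14).

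Some of these differences were absent among Fscn1-high cells alone, and others were seen there too. Among Fscn1-high cells, H2-Ab1 was 97.2 CPM in the 4 aPD-1 cells and 490 CPM in the 6 control cells, Ifitm3 97.2 and 44.6 CPM, Cxcl10 97.2 and 44.6 CPM, and Cd74 5930 and 6640 CPM. In the same cells Ccl22 was 583 CPM in aPD-1 and 2317 CPM in control, Crip1 3694 and 9537 CPM, and Ifi27l2a 486 and 44.6 CPM, the aPD-1 UMIs of Ifi27l2a being in 1 cell. The 5 Fscn1-low cells of aPD-1 had 9931 CPM of H2-Ab1, 4382 CPM of Ifitm3 and 3086 CPM of Cxcl10, and control had no such cell. Among these 5 were the aPD-1 cells named above with more UMIs of the cDC2 than of the migratory list. The part of this mix of cells in the differences was not tested. Hence the direction for H2-Ab1 turned among Fscn1-high cells, where aPD-1 had 1 UMI and control 11. Of 7 hypoxia and glycolysis genes, 5 were higher in aPD-1 (median 1.54), for instance Ldha (2.22), of which 57.4% of the UMIs were in 1 cell. Ldha was 1249 CPM in these cells, against 3197 CPM in melanoma cells of the same library, and the part of free tumour RNA was not tested.

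In D+F against control, 6.36% of 220 genes were higher and 4.55% lower in migratory-like cells, with a median of 0.15 over all genes. Ifi27l2a was 1522 CPM in D+F and 44.6 CPM in control (5.09), and the lysosomal protein Psap 1813 and 535 CPM (1.76). Of the gate genes, whose levels are no findings, H2-Ab1 was 1723 and 490 CPM (1.81, 0.89 to 2.87). Cd74 was 20769 and 6640 CPM (1.65) and H2-Eb1 3693 and 1248 CPM (1.57). Crip1 (-1.23), the RNA-binding protein Zfp36l1 (-1.22), Irf8 (-1.06), the gate gene Fscn1 (-0.90) and the actin-binding peptide Tmsb4x (-0.51) were lower in D+F. In the other cells of these libraries, Cd74 differed by 0.86 in macrophages, 0.94 in monocytes and 0.96 in melanoma cells. It differed by 0.07 in T and NK and -1.31 in plasmacytoid cells. Ifi27l2a differed by 0.11 in macrophages, -2.28 in monocytes, 0.38 in melanoma, -0.67 in T and NK and -0.62 in plasmacytoid cells. Among Fscn1-high cells, of which D+F had 7, Cd74 was 12845 CPM in D+F and 6640 CPM in control, and H2-Ab1 717 and 490 CPM. Of these 7 cells, 1 had 279 class II UMIs and no other more than 139. The 2 Fscn1-low cells of D+F, a kind that control lacked, held 54 H2-Ab1 and 516 Cd74 UMIs, against 23 and 412 in the 7. The part of this mix of cells in the D+F differences was not tested. Of 10 measured migratory list genes, 1 was at least 2-fold higher in D+F, Il12b (1.16), on the 1 cell named above.

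**Figure D5:**
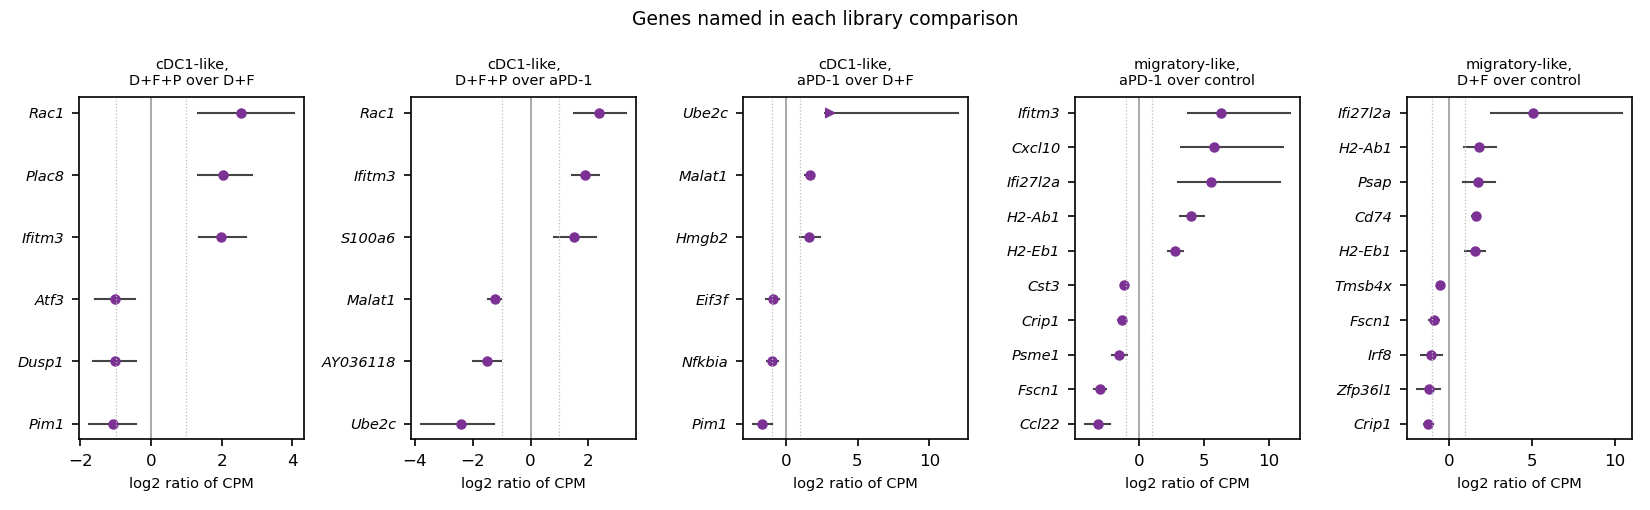
Log2 ratio of CPM with its exact 95% interval for the genes named in each of the 5 comparisons, the first-named library over the second, dotted lines at 2-fold. The triangle is a lower bound for Ube2c (0 UMIs in D+F), drawn to the axis end, and Rac1 leads both comparisons of D+F+P.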

How the data were processed

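The 4 libraries were made with the 10x 5' V(D)J chemistry from dissociated tumours, per the labels' protocols. The submitters' processing notes name Cell Ranger 3.1.0 and the mouse build GRCm38, or mm10. The authors deposited raw UMI counts, whole numbers per gene and called barcode for 31053 genes, per the file headers. The annotation release and later filters are not given in the sources used here.

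UMIs were summed per library and subset and divided by all gene UMIs of those cells, giving CPM. Shares carry Clopper-Pearson 95% intervals and ratios carry exact conditional binomial 95% intervals. A count of 0 was set to 3 UMIs per library for bounds. Named genes needed 50 UMIs in the pair, UMIs in at least 5 cells of the higher library and at most 50% of its UMIs in 1 cell. Mitochondrial, ribosomal, haemoglobin, immunoglobulin and receptor genes, unnamed models and genes under 25% of the level of another cell class were left out. Of the rest, the 5 ends each way were named against control, and 3 each way otherwise, besides fixed genes and the ends of lists. Members, gene lists and markers were chosen with earlier results of these data known. Genes discussed by subset or state follow the marker lists or were chosen after their values were seen. The Fscn1-only cells, the 6-cell limit and the split at 5 Fscn1 UMIs were chosen after seeing the data. Code was tested on simulated data. Python 3.11.15, NumPy 2.4.6, SciPy 1.17.1, pandas 2.3.3 and matplotlib 3.10.9 were used. Promoter sequences are from RefSeq, gene positions from GENCODE.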

Additional observations from a re-analysis of the deposited data

How the results depend on the processing

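Of 661 recomputed values, 600 stayed within their counting error or within 1.5 times the count, 61 moved beyond it, and 0 changed sign. With every barcode thinned to 1000 UMIs before gating, the dendritic cell share was 0.347% in D+F+P, 0.362% in D+F and 0.715% in aPD-1. Without thinning it was 1.18%, 1.27% and 1.99% in these libraries and 0.328% in control. Thinned, D+F+P and D+F thus came near the unthinned control share. With thinning, D+F subsets became 12.5% cDC1-like, 0% Cd209a and 75.0% migratory-like, control 0% cDC1-like and 100% migratory-like. Of barcodes with fewer than 10 pigment UMIs, dendritic cells were 1.86% in D+F+P, 5.51% in D+F, 4.58% in aPD-1 and 3.35% in control. Counts of genes at least 2-fold higher and lower moved most. In cDC1-like cells, thinning each cell gave 1 and 0 (D+F+P against D+F), 1 and 3 (D+F+P against aPD-1) and 1 and 0 (aPD-1 against D+F). A minimum of 20 UMIs gave 73 and 41, 80 and 88, and 107 and 59. In migratory-like cells, thinning gave 5 and 3 (aPD-1 against control) and 3 and 1 (D+F against control), and 20 UMIs gave 83 and 63, and 44 and 41. Thinning leaves fewer genes with 50 UMIs, and the lower minimum adds genes. Without the cell with most UMIs, 13 genes were lower in D+F+P against D+F, 7 higher and 21 lower in D+F+P against aPD-1, and 13 higher in aPD-1 against D+F, all in cDC1-like cells. With fewer than 3 pigment UMIs, 38 genes were higher in migratory-like cells of D+F against control. The causes of these 2 changes were not tested. No paired analysis was possible because each group is 1 library. Weighting subsets equally could not be run, since no library pair has enough cells of all subsets. Within migratory-like cells of aPD-1 against control, thinning gave 2.77 for H2-Ab1, 2.03 for H2-Eb1 and -1.56 for Fscn1. The small number of cells, down to 1 and 0 in control, limits every comparison.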

Other observations

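Sensing, uptake and cytokine genes, not used above, were sparse in dendritic cells. Cd36, a scavenger receptor, had UMIs in 19 of 38 cDC1-like cells (56.4 CPM in D+F+P, 53.9 in D+F, 91.5 in aPD-1 and 0 in the control cell), and in 0 of 16 Cd209a and 0 of 26 migratory-like cells. Tlr11, a receptor of microbial profilin, had UMIs in 9 of 38 cDC1-like, 1 of 16 Cd209a and 0 of 26 migratory-like cells. Mertk, an efferocytosis receptor, and Tlr7 had 0 UMIs in all 80 cells. Tgfb1 had UMIs in 20 of 38 cDC1-like, 4 of 16 Cd209a and 2 of 26 migratory-like cells. Median depth was 8296, 4290 and 4479 UMIs per cell in these subsets. With each cell thinned to 1000 UMIs, Cd36 was left in 3 of 38 cDC1-like cells and in 0 of both other subsets, Tlr11 in 0 cells of all 3 and Tgfb1 in 1 Cd209a cell alone, so for Tlr11 and Tgfb1 no higher share in cDC1-like cells was seen at equal depth. These genes were chosen after their values were seen.

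In migratory-like cells, Stat4, which transmits IL-12 signals, had UMIs in 17 of 26 cells, against 2 of 38 cDC1-like and 0 of 16 Cd209a cells. Its level was 219 CPM in D+F+P (2 cells), 224 in D+F, 205 in aPD-1 and 312 in control. Il15ra, which presents IL-15 to lymphocytes, had UMIs in 12 of 26, against 3 of 38 and 1 of 16. At 1000 UMIs per cell both were left in 7 of 26 migratory-like cells, against 0 of 38 and 0 of 16 for Stat4, and 1 of 38 and 1 of 16 for Il15ra. Il12a, the p35 chain that pairs with Il12b in IL-12, had 0 UMIs in all 80 cells, as did Il10. In Cd209a cells, Tnf was 158 CPM in D+F+P, 1304 in D+F and 48.4 in aPD-1, and Il1b 190, 1630 and 919 CPM. The Cd209a cells of D+F also had the highest Cxcl2, at 5133 CPM against 316 in D+F+P and 0 in aPD-1, with UMIs in 4 of all 16 cells. Without the 2 D+F cells that had 50 or more Lyz2 UMIs each, D+F came to 66.1 CPM of Cxcl2, 595 CPM of Tnf and 793 CPM of Il1b. D+F was then no longer highest for Cxcl2 and Il1b. It stayed highest for Tnf, on 9 UMIs against 5 in D+F+P and 1 in aPD-1.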
